A study of Mus musculus with 6 samples.

Results

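The chloride channel and chloride uptake genes measured here are Cftr, Ano1, Ano6, Clcn2, Clcn3, Clcn5, Clcn6, Clcn7 and Slc12a2, chosen by name. They are 9 of the 57180 gene identifiers in the files, and all 9 were among the 17639 genes tested. Cftr lies on chromosome 6, Ano1 on 7, Ano6 on 15, Clcn2 on 16, Clcn3 on 8, Clcn5 (ENSMUSG00000004317) on X, Clcn6 on 4, Clcn7 on 17 and Slc12a2 on 18. RNA-seq was carried out on mouse corneal endothelial cells in 2 groups of 3 libraries. The Tcf4+/- group was homozygous for Col8a2 Q455K, an allele used as a model of Fuchs endothelial corneal dystrophy, and also had 1 copy of Tcf4, which encodes an E protein, knocked out. The Col8a2 group was homozygous for the same Col8a2 allele alone, so that both groups carry the disease allele and no wild-type cornea is among them. The labels state no age, do not say how the Tcf4 allele was made, and do not say whether 1 library is 1 animal or pooled corneas, so that p-values reflect only the spread among these 6 libraries, which may be technical.

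Chloride moves with bicarbonate, sodium and water across the corneal endothelium, the monolayer that keeps the cornea clear by moving fluid out of the stroma. Slc12a2 (NKCC1) carries sodium, potassium and chloride into the cell across the basolateral membrane. Cftr, opened by cAMP-dependent phosphorylation, Ano1, opened by calcium, and Clcn2, opened by hyperpolarization, let anions pass the plasma membrane. Ano6 is a calcium-activated phospholipid scramblase that also conducts ions. Clcn3, Clcn5, Clcn6 and Clcn7 encode chloride-proton exchangers of endosomes and lysosomes, which support the acidification and ion balance of these compartments.

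Total estimated counts ran from 30344161 to 54265479 per library, and Tcf4+/- replicate 3 was the shallowest. Tcf4 itself stood at 440, 599 and 373 CPM (estimated counts scaled to library size with TMM factors) in the Tcf4+/- group and at 313, 470 and 430 CPM in the Col8a2 group. Counted over the whole gene, Tcf4 thus had a log2 fold change of 0.22, which goes against the direction of a knockout, so Tcf4+/- below means the libraries labelled so. All 14 corneal endothelium markers had counts in every library, with a sum of 12893 to 23666 CPM in the Tcf4+/- group and 15616 to 23555 CPM in the Col8a2 group, lowest in Tcf4+/- replicate 3. Markers of other tissues were present too. The 6 stromal keratocyte markers summed to 8427, 17731 and 10706 CPM in the Tcf4+/- libraries and to 11696, 9166 and 5643 CPM in the Col8a2 libraries. The 5 erythroid markers summed to 6127, 1362 and 2943 CPM in the Tcf4+/- libraries and to 1296, 531 and 1967 CPM in the Col8a2 libraries. The 5 retina markers summed to 4585, 2176 and 9383 CPM in the Tcf4+/- libraries and to 3037, 2162 and 2363 CPM in the Col8a2 libraries. The 13 lens markers summed to 91.6, 4262 and 11230 CPM in the Tcf4+/- libraries and to 628, 33.9 and 294 CPM in the Col8a2 libraries, with Cryba2, Crygs, Lgsn, Lim2 and Mip at 0 in at least 1 library. The 9 corneal epithelium markers, which include Krt12, summed to 5225 to 11455 CPM in the Tcf4+/- group and 5898 to 12754 CPM in the Col8a2 group, with none at 0. The lists for trabecular meshwork, pigment, immune, vascular endothelial and Schwann cells summed to at most 2222 CPM each in any library. In bulk RNA, fewer cells of a type and less RNA per cell cannot be told apart.

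Clcn5, the endosomal exchanger whose loss causes Dent disease in humans, was the member with the clearest separation of the groups. It stood at 13.0, 19.0 and 9.35 CPM in the Tcf4+/- libraries and at 43.9, 48.4 and 24.3 CPM in the Col8a2 libraries. Every Tcf4+/- library lay below every Col8a2 library, while the lowest Col8a2 library was close to the highest Tcf4+/- library. The mean was 13.8 ± 4.90 CPM in the Tcf4+/- group and 38.8 ± 12.8 CPM in the Col8a2 group (SD, n = 3 each). The fitted log2 fold change was -1.49 (standard error 0.41, 95% interval -2.42 to -0.57), a fold of 0.355. With edgeR's quasi-likelihood test its unadjusted p was 0.00497 and its Benjamini-Hochberg adjusted p over all genes tested was 0.99988, so Clcn5 did not pass. DESeq2 gave it an adjusted p of 0.0958.

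Of the 9 members, 1 had groups that did not overlap, Clcn5, with the Tcf4+/- group lower. Over all genes tested the groups did not overlap for 8.10%, and did so with the Tcf4+/- group lower for 3.57% and with it higher for 4.53%. Likewise 1 of 9 members had an unadjusted p under 0.05, against 2.42% of all genes tested. That count was 3 without Tcf4+/- replicate 2 (Clcn5, Clcn7 and Ano1), a fit in which 581 of all genes had such a p. Without Tcf4+/- replicate 3 the count was 2 (Clcn5 and Cftr), with 312 of all genes, beside 427 with all libraries. In both fits 0 members were called after adjustment. By the edgeR test after adjustment, 0 of 9 members were called, and 0 (0%) of all genes tested were called higher or lower. DESeq2 called 0 of 9 members and 0.513% of the genes it gave an adjusted p. Of the 9 members, 7 were fitted lower and 2 higher, with a median log2 fold change of -0.40, beside 49.9% fitted lower and a median of 0.00 over all genes tested.

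**Figure D1:**
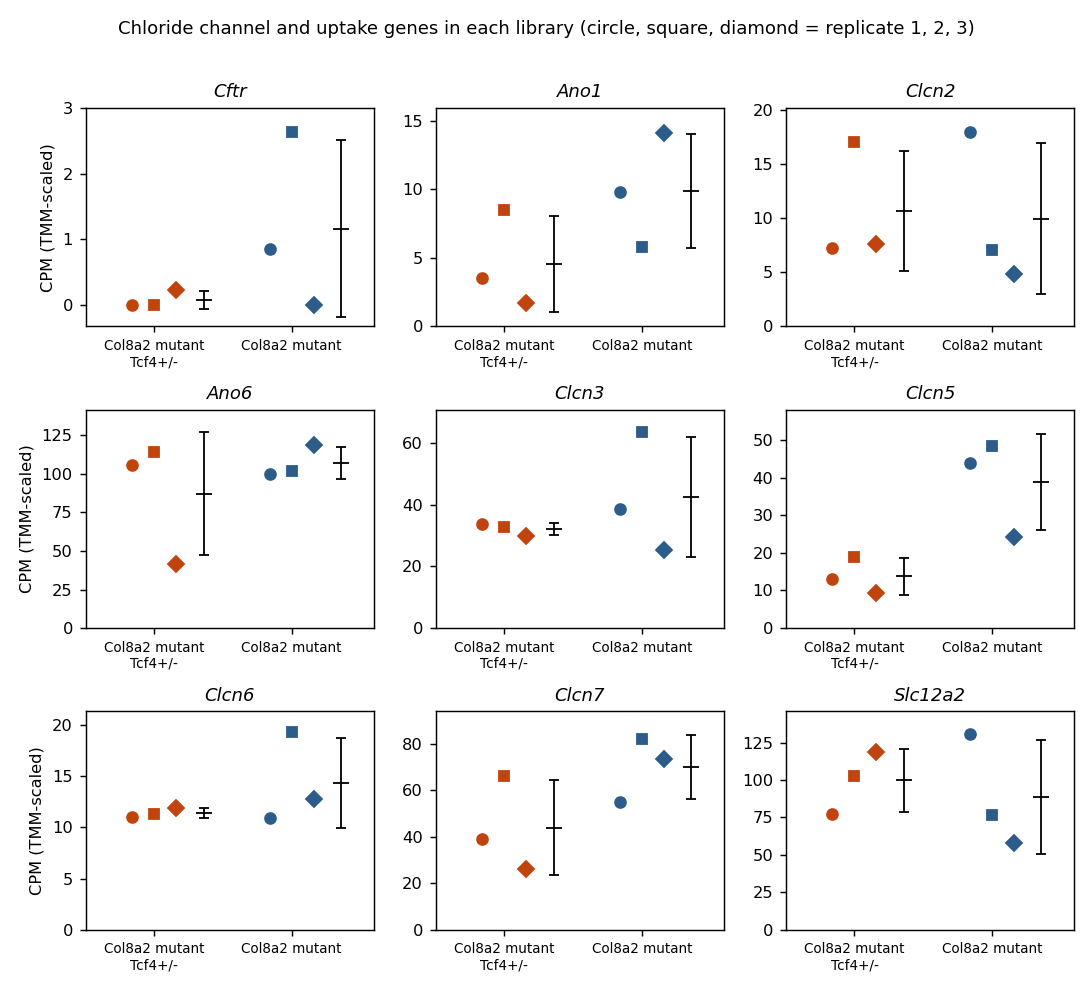
TMM-scaled CPM (y axis, linear) of each of the 9 genes in the Tcf4+/- libraries (left, orange) and the Col8a2 libraries (right, blue), with symbols for replicates and black bars for mean ± SD. Only the Clcn5 panel shows no overlap, with 9.35 to 19.0 CPM in the Tcf4+/- group and 24.3 to 48.4 CPM in the Col8a2 group.

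The deposited gene length gives a view of which Clcn5 transcript the reads were assigned to, since RSEM weights it by the estimated share of each isoform. It was 8390, 7529.6 and 8390 bases in the Tcf4+/- libraries and 8390, 8390 and 8384 bases in the Col8a2 libraries. The length of 8390 bases is that of Clcn5-201, the longest of the 5 annotated Clcn5 transcripts, so in 4 of 6 libraries the authors' estimate placed all Clcn5 reads on that transcript. The other coding transcripts, Clcn5-202 and Clcn5-203, are 3052 and 1073 bases long and start far upstream of Clcn5-201 in the GRCm38 annotation. The difference in Clcn5 between groups was thus counted mainly on Clcn5-201, whose annotated start is the downstream one. The deposited length does not settle which start was in use. Clcn5-201 is much longer than the transcripts from the upstream start, and reads at the first exons were not examined. RefSeq lists a start at each place, and the 250 bases before both are shown. Both are from build GRCm38.p6, minus strand, written 5′ to 3′ up to the base before the start, and capitals mark CANNTG, the hexamer known as the E-box that E proteins such as Tcf4 recognize as a class. The first, at chrX:7319359-7319608, lies before the start of Clcn5-203, and the second, at chrX:7188715-7188964, before that of Clcn5-201.
Clcn5 upstream start: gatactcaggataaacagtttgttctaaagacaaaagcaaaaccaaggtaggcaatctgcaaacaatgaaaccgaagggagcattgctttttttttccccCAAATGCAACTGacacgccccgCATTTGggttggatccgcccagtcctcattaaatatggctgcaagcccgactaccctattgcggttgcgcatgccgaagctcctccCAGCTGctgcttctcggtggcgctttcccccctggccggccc
Clcn5 downstream start: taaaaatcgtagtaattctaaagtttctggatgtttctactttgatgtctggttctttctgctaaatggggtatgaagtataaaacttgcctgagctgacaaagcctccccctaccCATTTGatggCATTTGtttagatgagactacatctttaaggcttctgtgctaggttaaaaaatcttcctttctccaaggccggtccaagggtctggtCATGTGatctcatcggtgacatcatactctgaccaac
The upstream window held 4 CANNTG hexamers, with 52.4% GC and 11 CpG dinucleotides, and the downstream window held 3, with 41.2% GC and 3 CpG dinucleotides. Neither held CACCTG or its reverse complement CAGGTG.

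Such hexamers are common in windows of this kind. RefSeq windows were found for 8 of the 9 members, 11 windows in all, and Slc12a2 was not among them. CANNTG, which reads the same on both strands, occurred in 8 of the 11 windows and in 66.2% of all 32851 windows of 250 bases. CACCTG or CAGGTG, a subset of CANNTG, occurred in 3 of the 11, those of Ano1, Clcn2 and the upstream start of Clcn3, and in 17.2% of all windows. CAGCTG, another form of CANNTG, occurred in the window of the upstream Clcn5 start, 42 bases before the start, and in 13.0% of all windows. The Clcn6 window held CANNTG 3 times, including CACGTG as near as 25 bases before the start, a Clcn7 window held CACGTG 15 bases before the start, and the windows of Cftr, Ano6 and the downstream start of Clcn3 held none. The windows of Cftr, Ano1, Ano6, Clcn2 and Clcn6 had between 66.0% and 76.4% GC, above the median of 52.4% over all windows. Those of Clcn3 had 68.4% at the upstream and 39.2% at the downstream start, and those of Clcn7 had 50.4% and 57.2%. A match is a description of these letters and not of binding.

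Clcn5 lies on the X chromosome, and the libraries differed in sex pattern. Xist, expressed from the inactive X, stood at 46.0, 75.3 and 1.22 CPM in the Tcf4+/- libraries and at 0.510, 79.9 and 74.2 CPM in the Col8a2 libraries, so 1 library of each group had little of it. Those libraries, Tcf4+/- replicate 3 and Col8a2 replicate 1, had Clcn5 at 9.35 and 43.9 CPM. Among the 4 libraries with Xist the log2 fold change of Clcn5 was -1.19 with an unadjusted edgeR p of 0.0445. Over all 16 other settings its fold change stayed negative, from -1.79 to -1.19, and its unadjusted p ran from 0.000597 to 0.0445. Its lowest adjusted p among them was 0.0958, from DESeq2. The fold change of Clcn5 was -1.59 without Tcf4+/- replicates 2 and 3, the libraries high in lens markers. That leaves 1 library in that group, assumed to vary like the others. Those libraries also had 15.6% and 15.8% of TPM in mitochondrial tRNA genes, beside 0 in the others. Their deposited lengths exceeded the effective lengths, which allow for fragment size, by medians of 155 and 150 bases, beside 211 to 241 in the others. The part of these differences in the values was not tested.

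Within the 4 exchangers among the members, Clcn5 also took a smaller share in every Tcf4+/- library. Its part of their summed TPM (transcript abundance per length) was 7.39%, 8.64% and 6.50% in the Tcf4+/- libraries and 17.9%, 13.3% and 9.41% in the Col8a2 libraries. These ranges did not overlap for this sum, which leaves out Clcn4, a further exchanger. Clcn4 stood at 23.6 TPM in Tcf4+/- replicate 2 and at 31.4 TPM in Col8a2 replicate 3. With Clcn4 in the sum the Clcn5 shares of these libraries would be about level, so the separation depends on which exchangers are summed. The mean was 7.51% ± 1.07 in the Tcf4+/- group and 13.6% ± 4.27 in the Col8a2 group (SD, n = 3 each). A share within a library does not depend on how libraries are scaled to each other, but it comes from the same counts, and 0.1 is the smallest two-sided p that exact permutation of 3 and 3 libraries allows.

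Clcn7, the lysosomal exchanger whose loss causes osteopetrosis in mice and humans, was the most abundant of the exchangers among the members and the next in order of p. It stood at 39.0, 66.3 and 26.2 CPM in the Tcf4+/- libraries and at 55.0, 82.1 and 73.3 CPM in the Col8a2 libraries. Tcf4+/- replicate 2 lay above Col8a2 replicate 1, so the groups overlapped. The log2 fold change was -0.68 (standard error 0.37, 95% interval -1.50 to 0.14, edgeR unadjusted p = 0.0959, adjusted p = 0.99988). It was -1.09 without Tcf4+/- replicate 2 (edgeR unadjusted p = 0.0128) and -0.42 without Tcf4+/- replicate 3 (edgeR unadjusted p = 0.243). These were the ends of its range when 1 library was left out at a time. Ostm1, the subunit that Clcn7 needs in lysosomes, had a log2 fold change of -0.20.

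Clcn3 and Clcn6, exchangers of endosomes and late endosomes, were even across the Tcf4+/- libraries and more spread in the Col8a2 libraries. Clcn3 stood at 33.8, 32.7 and 30.0 CPM in the Tcf4+/- group and at 38.5, 63.5 and 25.2 CPM in the Col8a2 group. Clcn6 stood at 11, 11.3 and 11.9 CPM in the Tcf4+/- group and at 10.9, 19.3 and 12.8 CPM in the Col8a2 group. For both, Col8a2 replicate 2 was the highest library and 1 Col8a2 library lay below all Tcf4+/- libraries. The log2 fold changes were -0.40 (standard error 0.37) for Clcn3 and -0.33 (standard error 0.44) for Clcn6, with 95% intervals from -1.22 to 0.43 and from -1.31 to 0.65. Without Col8a2 replicate 2 that of Clcn3 was 0.02. Col8a2 replicate 2 was the highest of all 6 libraries for 5 of the 9 members, and for 18.4% of all genes tested.

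Ano1, the calcium-activated chloride channel, was low and varied more than most members. It stood at 3.52, 8.47 and 1.72 CPM in the Tcf4+/- libraries and at 9.81, 5.79 and 14.1 CPM in the Col8a2 libraries. Tcf4+/- replicate 2 lay above Col8a2 replicate 2, so the groups overlapped, and the highest library was 8.22 times the lowest. The log2 fold change was -1.12 (standard error 0.74, 95% interval -2.76 to 0.53, edgeR unadjusted p = 0.161). It was -1.91 without Tcf4+/- replicate 2 (unadjusted p = 0.0497) and -0.73 without Tcf4+/- replicate 3 (unadjusted p = 0.324), so its size rested on single libraries. The deposited length of Ano1 was 4552 bases, the length of Ano1-203, in 4 of 6 libraries. It was 4376 bases in Tcf4+/- replicate 2 and 3434 bases in Col8a2 replicate 3, the library with the most Ano1, so part of the reads there was assigned to shorter transcripts. The files list 1 Ano1 transcript more than the annotation used for lengths.

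Cftr, the cAMP-regulated anion channel, was the lowest member and had no count in 3 of 6 libraries. It had 0, 0 and 7 estimated counts in the Tcf4+/- libraries and 40, 131 and 0 in the Col8a2 libraries. Thus 2 Tcf4+/- libraries and 1 Col8a2 library were at 0, and the groups overlapped. At these depths a count of 0 allows up to 3 counts, which is 0.0626 and 0.0553 CPM in the Tcf4+/- libraries at 0 and 0.0585 CPM in the Col8a2 library at 0, for counting error only. The fitted log2 fold change was -3.92 with a 95% interval from -9.47 to 1.63 (edgeR unadjusted p = 0.146), and it depends on the prior count of the fit. It was -0.26 on the log2(TPM + 1) scale, which understates changes of low genes, and -2.46 without Col8a2 replicate 2. It was -8.87 without Tcf4+/- replicate 3 (unadjusted p = 0.0440) and -9.07 among the 4 libraries with Xist, where the remaining Tcf4+/- libraries are at 0 and the value is no bound. Cftr-201, the full-length coding transcript of 6303 bases, took all Cftr reads in the 3 libraries with counts. In the libraries at 0 the deposited length, 4519.7 bases, is the plain mean of the 6 annotated transcripts and carries no isoform information.

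Clcn2, the plasma membrane CLC channel, differed more within than between groups. It stood at 7.20, 17.0 and 7.63 CPM in the Tcf4+/- libraries and at 17.9, 7.05 and 4.86 CPM in the Col8a2 libraries. Each group held 1 library near 17 to 18 CPM and the others at 4.86 to 7.63 CPM. The log2 fold change was 0.10 (standard error 0.64, 95% interval -1.34 to 1.53, edgeR unadjusted p = 0.882). Its sign turned in 4 of 16 other settings. Clcn2 exons overlap those of Polr2h and Fam131a on the other strand by 82 and 85 bases in the annotation, and reads there cannot be assigned without strand.

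Ano6, the scramblase, was even in 5 libraries and low in 1. It stood at 106, 114 and 41.7 CPM in the Tcf4+/- libraries and at 100.2, 102 and 119 CPM in the Col8a2 libraries. Tcf4+/- replicate 3 alone lay apart, and it was also the library with the least corneal endothelium marker signal and the most lens marker signal, whose part in this value was not tested. The log2 fold change was -0.30 (standard error 0.37, 95% interval -1.13 to 0.53, edgeR unadjusted p = 0.440), and it was 0.03 without that library. Ano6 exons overlap Gm49172 and A130051J06Rik on the other strand by 122 and 214 bases, and no protocol step that keeps strand is described. Tcf4+/- replicate 3 was the lowest library for 4 of the 9 members and for 25.0% of all genes tested.

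Slc12a2, the chloride uptake gene among the members, had overlapping groups with a wide spread. It stood at 77.2, 103 and 119 CPM in the Tcf4+/- libraries and at 131, 76.9 and 58.1 CPM in the Col8a2 libraries. The highest and the lowest library both belonged to the Col8a2 group. The log2 fold change was 0.17 (standard error 0.35, 95% interval -0.61 to 0.95, edgeR unadjusted p = 0.632). It was -0.06 without Col8a2 replicate 3. Slc12a2 reads were assigned almost wholly to Slc12a2-201, with a deposited length of 6520 bases in 4 of 6 libraries.

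**Figure D2:**
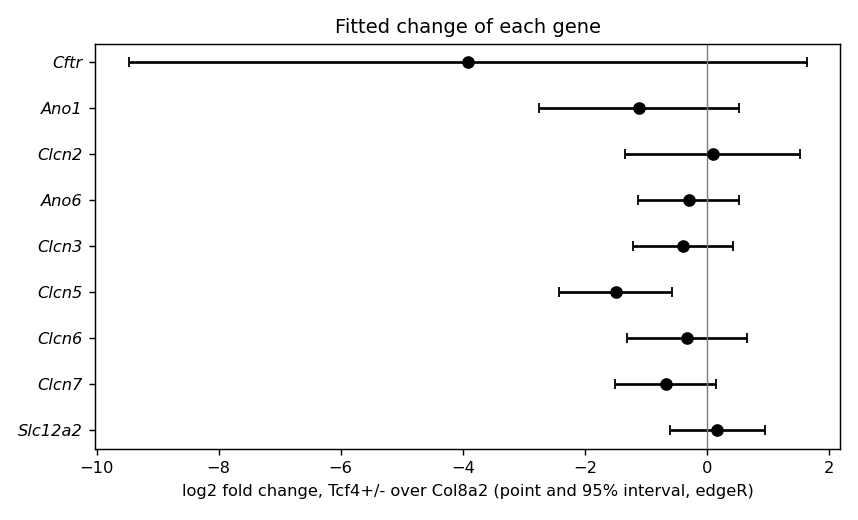
Log2 fold change of each gene, Tcf4+/- over Col8a2 (x axis), with the 95% interval of the edgeR fit, over 3 libraries per group. The interval of Clcn5, from -2.42 to -0.57, is the only one of the 9 that does not reach 0, before any adjustment for the number of genes tested.

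Compared per length, the members spanned a wide range of levels. Over the 6 libraries Ano6 ran from 7.31 to 27.9 TPM with a median of 25.1, Clcn7 from 6.72 to 27.9 TPM with a median of 17.0, and Slc12a2 from 10 to 20.9 TPM with a median of 15.4. The order of these top members was not fixed, as Ano6 exceeded Clcn7 in 5 of 6 libraries and Clcn7 exceeded Slc12a2 in 3 of 6. Clcn3 followed with a median of 7.22 TPM and exceeded Clcn2 in 6 of 6 libraries. Clcn2, Clcn5, Clcn6 and Ano1 had medians of 3.10, 2.99, 2.58 and 1.90 TPM, and among these 4 each exceeded the next in 4 of 6 libraries. Clcn5 kept no fixed place in this order, and its place followed the group only in part. Clcn5 lay below Clcn2 in all 3 Tcf4+/- libraries and in 1 of 3 Col8a2 libraries. Clcn5 lay above Clcn6 in all 3 Col8a2 libraries and in 1 of 3 Tcf4+/- libraries, replicate 2, where they were all but level (2.73 and 2.72 TPM). Cftr was last in every library. By mean TPM, Ano6 lay above 75.5% of all genes tested, Ano1 above 28.1% and Cftr above 1.06%.

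Ano6, Clcn7 and Slc12a2 together made up most of the summed TPM of the 9 genes in every library. The share of Slc12a2 was 20.3%, 20.6% and 38.4% in the Tcf4+/- libraries and 25.7%, 14.7% and 12.6% in the Col8a2 libraries. Tcf4+/- replicate 3, where Ano6 was low, had the largest share of Slc12a2. The share of Clcn5 was 2.62%, 3.29% and 2.34% in the Tcf4+/- libraries and 6.66%, 7.11% and 4.08% in the Col8a2 libraries.

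**Figure D3:**
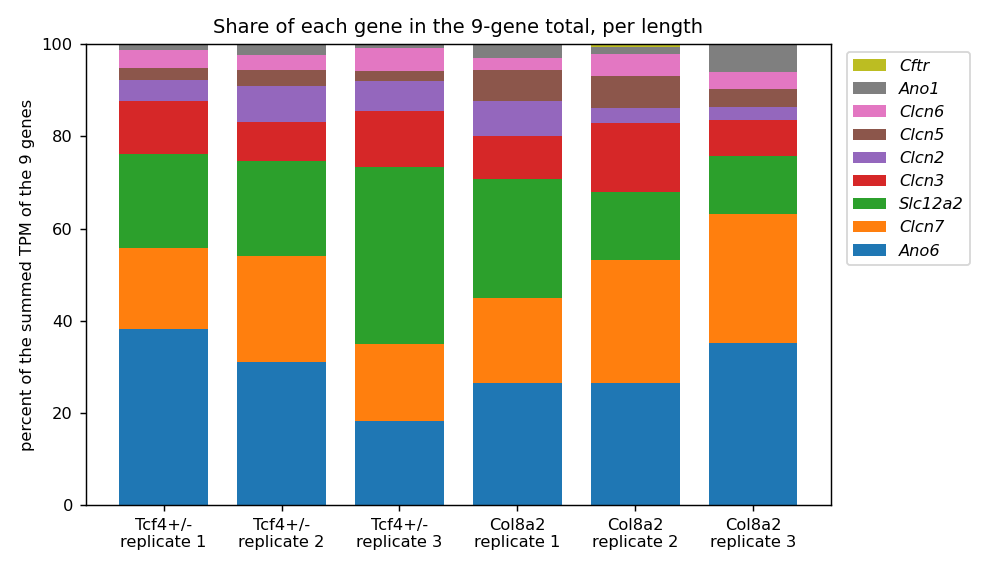
Share of each gene in the summed deposited TPM of the 9 genes (y axis, percent), 1 bar per library, with the Tcf4+/- libraries on the left. Ano6, Clcn7 and Slc12a2 fill most of each bar, and the Clcn5 segment is at most 3.29% in the Tcf4+/- libraries and at least 4.08% in the Col8a2 libraries.

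The deposited lengths of the other members showed that isoform estimates varied between libraries, without separating the groups. Clcn6 was at 5198 bases, the length of Clcn6-205, in Tcf4+/- replicate 3 and Col8a2 replicates 1 and 2, and at 4982, 4548 and 5139 bases in the others. Clcn7 ran from 3365 to 3916 bases in the Tcf4+/- group and from 3811 to 3932 bases in the Col8a2 group. Clcn2 ran from 2552 to 2915 bases in the Tcf4+/- group and from 2625 to 3114 bases in the Col8a2 group.

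**Figure D4:**
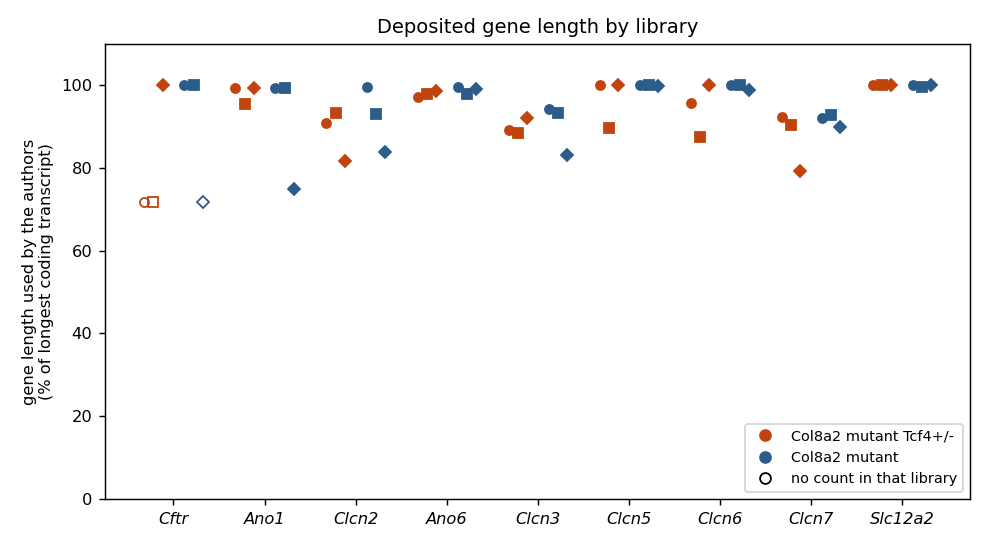
Deposited gene length in each library as a percent of the longest annotated coding transcript (y axis), for the Tcf4+/- (orange) and Col8a2 (blue) libraries, with open symbols where the gene had no count. Clcn5 sits at 100% of 8390 bases in 4 libraries and lowest in Tcf4+/- replicate 2, and Ano1 is lowest in Col8a2 replicate 3.

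Genes with profiles most like those of the members were sought over the 6 libraries, by the root mean square difference of centred log2(CPM + 2) among 9562 named genes of at least 10 CPM on average, 9563 for Cftr. Nearest to Clcn5 was Klhdc7a, a kelch domain gene, at a difference of 0.09. It stood at 10.2, 17.2 and 7.12 CPM in the Tcf4+/- libraries and at 33.6, 43.4 and 19.6 CPM in the Col8a2 libraries, the same order of libraries as Clcn5. The next was Papss2, which makes the sulfate donor for proteoglycans, at 0.22. Nearest to Clcn7 were Fkbp11 (0.08) and Rnpc3 (0.10), and nearest to Cftr were Bcs1l (0.08) and Zic4 (0.09). Cftr, at 0 to 2.64 CPM, varies little on this scale.

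Around the members, 9 further lists held the rest of the anoctamin and CLC families, other chloride channels and transporters, their kinases and partners, and the acidification machinery. Of 80 genes written, 68 were tested, and 0 were called higher or lower by edgeR after adjustment, or by DESeq2. Only Slc26a2 had an unadjusted edgeR p under 0.05, which is 1.47% of the 68, beside 2.42% of all genes tested. That count was 5 without Col8a2 replicate 3, 2 without Tcf4+/- replicate 2, 4 with DESeq2, 2 with no filter on low counts and 0 with limma voom. In the same order, the count over all genes was 723, 581, 1251, 1212 and 515, beside 427 in the main fit. The DESeq2 and unfiltered fits took in more genes. In each of these fits 0 genes of the lists were called after adjustment. The groups did not overlap for 4 of the 68, or 5.88%, beside 8.10% of all genes tested. In all, 46 were fitted lower and 22 higher, with a median log2 fold change of -0.16. Over all genes tested 49.9% were fitted lower, with a median of 0.00. Signs of genes that vary together across libraries are not independent, so the counts of signs in these lists are a description only.

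Slc26a2, a sulfate-chloride exchanger, stood at 16.1, 16.3 and 8.30 CPM in the Tcf4+/- libraries and at 23.0, 28.7 and 24.6 CPM in the Col8a2 libraries. Its groups did not overlap, and its log2 fold change was -0.90 with a standard error of 0.39 (edgeR unadjusted p = 0.0464, adjusted p = 0.99988). In the list of chloride-bicarbonate and SLC26 exchangers 4 of 9 were fitted higher and 5 lower, with a median of -0.26. Slc26a1, another sulfate exchanger, was near 0 in 4 libraries, with 1, 0 and 11 counts in the Tcf4+/- group and 212, 2 and 149 in the Col8a2 group. The exchangers of highest level, Slc4a2 and Slc26a7, had log2 fold changes of -0.30 and 0.31.

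Clcn4, the exchanger closest in kind to Clcn3 and Clcn5, was the tested CLC gene outside the members. It stood at 94.8, 78.5 and 42.2 CPM in the Tcf4+/- libraries and at 61.3, 145 and 94.8 CPM in the Col8a2 libraries, so the groups overlapped. The mean was 71.8 ± 26.9 CPM in the Tcf4+/- group and 100.4 ± 42.1 CPM in the Col8a2 group (SD, n = 3 each). Its log2 fold change, fitted on counts, was -0.48. All 4 tested genes of this list were fitted lower, with a median of -0.28. Tmem9b, a CLC-associated subunit, had groups that did not overlap, at 135, 132 and 80.0 CPM in the Tcf4+/- libraries and 135, 156 and 153 CPM in the Col8a2 libraries, where the ranges all but touch. Its relative Tmem9 had a log2 fold change of -0.17. Of the other anoctamins, 3 were fitted higher and 3 lower (median 0.04), with Ano10 at -0.38, Ano2 at 0.72 and Ano9 at 0.41.

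In the kinase pathway that phosphorylates and activates Slc12a2, 5 of 9 genes were fitted higher and 4 lower, with a median log2 fold change of 0.01. Wnk4, a WNK kinase, stood at 7.07, 5.62 and 7.90 CPM in the Tcf4+/- libraries and at 22.7, 10.1 and 9.37 CPM in the Col8a2 libraries, without overlap (log2 fold change -1.03, standard error 0.54, edgeR unadjusted p = 0.0849). Wnk3, named because its groups did not overlap, stood at 3.24, 2.69 and 1.69 CPM in the Tcf4+/- libraries and at 0.212, 0.787 and 1.58 CPM in the Col8a2 libraries. These ranges all but touch (log2 fold change 1.56, edgeR unadjusted p = 0.237). In deposited TPM the Wnk3 groups overlapped, with 0.220 in Tcf4+/- replicate 3 and 0.310 in Col8a2 replicate 3. Stk39 (SPAK), the kinase that acts on Slc12a2 directly, averaged 24.2 ± 5.38 CPM in the Tcf4+/- group and 38.8 ± 9.16 CPM in the Col8a2 group (SD, n = 3 each), and its fitted log2 fold change was -0.68. Sgk1 and Wnk1, the most abundant, had log2 fold changes of 0.27 and 0.01.

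The other chloride routes showed the same lack of calls. All 5 tested cation-chloride cotransporters other than Slc12a2 were fitted lower (median -0.29), with Slc12a4 at -0.43, Slc12a7 at -0.56 and Slc12a9 at -0.11. Volume-regulated and acid-sensitive channels had a median of -0.10, with Tmem206 at -1.0, Lrrc8c at 0.54, Lrrc8d at -0.25 and Lrrc8a at -0.01 on the log2 scale. Bestrophins and tweety genes had a median of -0.46, with Best2 at -1.25, Best1 at 1.74 and Ttyh3 at -0.27. Partners of Cftr and cAMP signalling genes had a median of -0.09, with Gopc at -0.41, Ezr at 0.21, Prkar1a at -0.09 and Slc9a3r2 at 0.06. In the acidification list, which holds pump subunits and lysosomal proteins, 9 of 10 were fitted lower with a median of -0.16. Mcoln1, Atp6v0a2, Lamp1 and Atp6ap1 were at -0.56, -0.34, -0.17 and -0.14. The smallest edgeR unadjusted p in this list was 0.287, for Mcoln1.

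**Figure D5:**
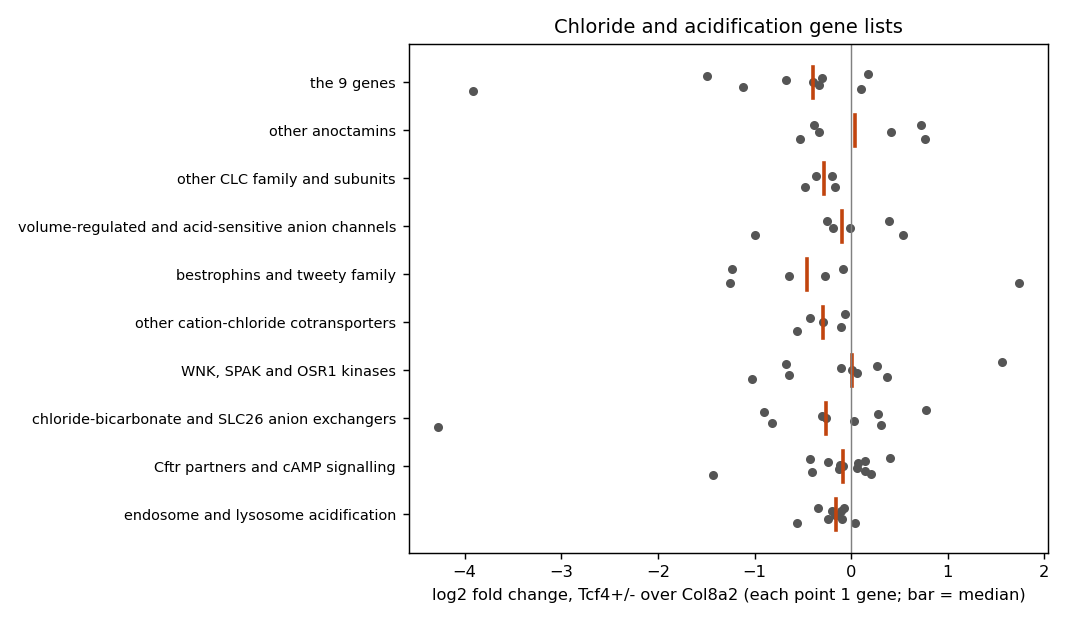
Log2 fold change, Tcf4+/- over Col8a2 (x axis), of each tested gene in the 9 members and the 9 further lists, with a bar at each median. Medians lie between -0.46 and 0.04, and no gene shown passed the edgeR test after adjustment.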

How the data were processed

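Per the labels' protocols, RNA was taken with the RNeasy Micro Kit and libraries were made with SMART-Seq HT and Nextera XT, which is not described as keeping strand. The submitters' processing notes list GRCm39, FastQC 0.12.1, fastp 0.23.2, STAR, DESeq2 and RSEM, with no other version. Per gene, the authors deposited RSEM expected counts, which carry no depth scaling (9.97% are fractional). They also deposited TPM, an abundance per transcript length with a fixed sum per library, of which mitochondrial tRNA genes take 15.6% and 15.8% in Tcf4+/- replicates 2 and 3 and 0% elsewhere. Other deposited columns used are the gene lengths and effective lengths in bases.

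Gene symbols were found for 51884 of 57180 identifiers in a reference table of gene names, and GENCODE M21 (GRCm38) served only for transcript lengths, starts and exon overlaps. Counts were rounded, filtered with filterByExpr, scaled by TMM (0.973 to 1.06) and tested with the quasi-likelihood test of edgeR 4.0.16 in R 4.3.3, group as the only term, robust, with Benjamini-Hochberg adjustment and a threshold of 0.05. The script was tested on simulated counts. No pair of libraries within a group agreed within sampling noise. DESeq2 1.42.0 and limma 3.58.1 served as alternatives. Members and lists were chosen with earlier results of these data known. In each list the 2 genes of smallest p and the 2 of highest TPM were named, and Wnk3 (groups that did not overlap) and Ostm1 (partner of Clcn7) were added after their values were seen. For the 3 members of smallest p, the 2 genes of nearest profile were named. Promoter sequences are from RefSeq.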

Additional observations from a re-analysis of the deposited data

How the results depend on the processing

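The count of 0 genes called by edgeR over all genes became 107 with the DESeq2 test and 2 without Col8a2 replicate 3, with a range of 0 to 2 over the fits that leave out 1 library; the cause was not tested. At an unadjusted p under 0.05 edgeR had 427 genes, DESeq2, which was run on more genes, had 1251, and edgeR with no filter on low counts had 1212. Leaving out 1 library gave 312 (Tcf4+/- replicate 3) to 723 (Col8a2 replicate 3). The counts of 0 members called and of 0 genes called in the further lists held in all 16 alternatives. The signs of Cftr, Ano1, Clcn5, Clcn6 and Clcn7 held in every alternative that gave a value. The sign of Clcn2 turned without Col8a2 replicate 2 (-0.10), Col8a2 replicate 3 (-0.23), Tcf4+/- replicate 2 (-0.41) or Tcf4+/- replicates 2 and 3 (-0.47). It turned for Ano6 without Tcf4+/- replicate 3 (0.03), for Clcn3 without Col8a2 replicate 2 (0.02), and for Slc12a2 without Col8a2 replicate 3 (-0.06) or Tcf4+/- replicates 2 and 3 (-0.21). On the TPM scales the median of all genes lay at -0.15 and -0.18. Leaving out 1 library at a time gave -0.41 to 0.83 for Clcn2, -1.91 to -0.73 for Ano1, -0.53 to 0.03 for Ano6, -0.66 to 0.02 for Clcn3 and -0.06 to 0.56 for Slc12a2. Cftr has no value with a mean of at least 5 CPM. Deviations of same-numbered libraries from their group means were weakly correlated (-0.0237, 0.139 and -0.0154), with only number 2 correlating best with its own. With 3 libraries a group this cannot show whether same-numbered libraries share a batch, and the labels do not say what the numbers mean. With the replicate block 0 genes were called and Clcn5 was at -1.49. A median standard error of 0.54 limits what 3 libraries a group can show.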
